A study of Mus musculus with 12 samples.

Results

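Basophils can be grown from mouse bone marrow with IL-3 or with thymic stromal lymphopoietin (TSLP), and the comparison described here asks which functions mature differently under these cytokines. For every gene the maturation effect was taken as the log2 level in immature cells minus the log2 level in mature cells, and the effect in IL-3 cultures was subtracted from the effect in TSLP cultures. All 12 of 12 libraries of the series entered, 3 from each of 4 groups, which share 1 fit, and 10861 of 31301 gene symbols passed a filter on low counts and were tested. A positive difference belongs, for a gene that rises with maturation, to a smaller rise in TSLP, and a negative difference, for a gene that falls with maturation, to a smaller fall in TSLP.

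Bone marrow cells of C57BL/6J wild-type mice were cultured for 7 days with IL-3 at 0.3 ng/mL or with TSLP at 1 µg/mL, and CD200R3+ c-Kit- basophils (bone marrow-derived basophils, BMBAs) were sorted from each culture. Immature cells, also called pre-basophils, were FcεRIα hi CD49b lo, and mature cells were FcεRIα lo CD49b hi. This makes 4 groups, with no deletion or transgene in any of them, and the question is whether the cytokine changes what maturation does to the transcriptome. Because the gate used CD49b and FcεRIα, the genes for these proteins, Itga2 and Fcer1a, are no independent readout of stage within a culture.

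Basophils are rare granulocytes that carry the high-affinity IgE receptor and release histamine, lipid mediators, proteases and cytokines. IL-3 drives their expansion and activation through a receptor of a specific alpha chain and a shared beta chain that signals by JAK2 and STAT5. TSLP acts through a receptor built of the TSLP receptor chain (Crlf2) and the IL-7 receptor alpha chain (Il7r), which engages JAK1, JAK2 and STAT5. STAT5 switches on its own brakes, among them Cish and the Socs genes, so these genes serve as a readout of cytokine signalling, while maturing granulocytes leave the cell cycle and take up adhesion molecules, chemoattractant receptors and inhibitory receptors.

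The libraries held 1720065 to 3685285 counts, and levels below are CPM, which put the counts on a common library size by trimmed mean of M-values (TMM). The ribosomal RNA symbol Rn45s took 7.43% to 12.5% of the counts in IL-3 libraries and 8.68% to 20.2% in TSLP libraries. All 10 basophil markers were detected, with a summed level of 41498 to 44946 and 11786 to 14565 CPM in immature and mature cells from IL-3 and of 29069 to 32067 and 9279.6 to 12570.3 CPM in those from TSLP, and 9 mast cell markers summed to at most 17.5 CPM in any library. One library stood apart: in TSLP mature 1 the B cell markers summed to 209.9 CPM against 24.4 and 26.2 in replicates 2 and 3, the dendritic cell markers to 1160.1 against 376 and 359.7, the monocyte or macrophage markers to 1681 against 794 and 742, and the neutrophil markers to 1509.5 against 705 and 687. Neutrophil markers also moved with stage in IL-3 cultures, at 241 to 288 CPM in immature and 1229 to 1456 CPM in mature libraries, against 356 to 394 in TSLP immature libraries. Monocyte or macrophage markers went from 218 to 367 CPM in immature to 780 to 1154 CPM in mature libraries of the IL-3 cultures, against 335 to 400.4 in TSLP immature libraries. Dendritic cell markers went from 35.1 to 76.7 up to 98.8 to 193 CPM in IL-3, and in TSLP they were at 109 to 120.2 CPM in immature libraries. B cell markers summed to 43.4 to 47.7 CPM in TSLP immature and 7.28 to 10.7 CPM in IL-3 immature libraries. The part of these markers in the results was not tested. In bulk RNA, fewer cells of a type and less RNA per cell cannot be told apart.

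The maturation effect differed between the cytokines for 455 genes, 4.19% of those tested (edgeR, adjusted p under 0.05), with 233 positive differences (2.15%) and 222 negative ones (2.04%). Of the positive ones, 231 were higher in mature than in immature cells of the IL-3 cultures, and of the negative ones 221 were higher in immature cells. For comparison, maturation itself passed the same test for 46.2% of genes in IL-3 and for 25.1% in TSLP cultures, and 451 of the 455 genes were called in IL-3 while 320 were called in TSLP. Effects were smaller in TSLP over all tested genes too, with a slope of TSLP on IL-3 effects of 0.541. Shares over all genes, given below beside each list, include genes that maturation did not change. Whether a list exceeds other genes with a like effect in IL-3 was not tested. The median size of the difference among called genes was 1.70 on the log2 scale with a median SE of 0.346, and the median over all tested genes was 0.0221. Without TSLP mature 1 the count was 723, of which 406 were among the 455, and without IL-3 mature 2 it was 240, of which 233 were.

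**Figure D1:**
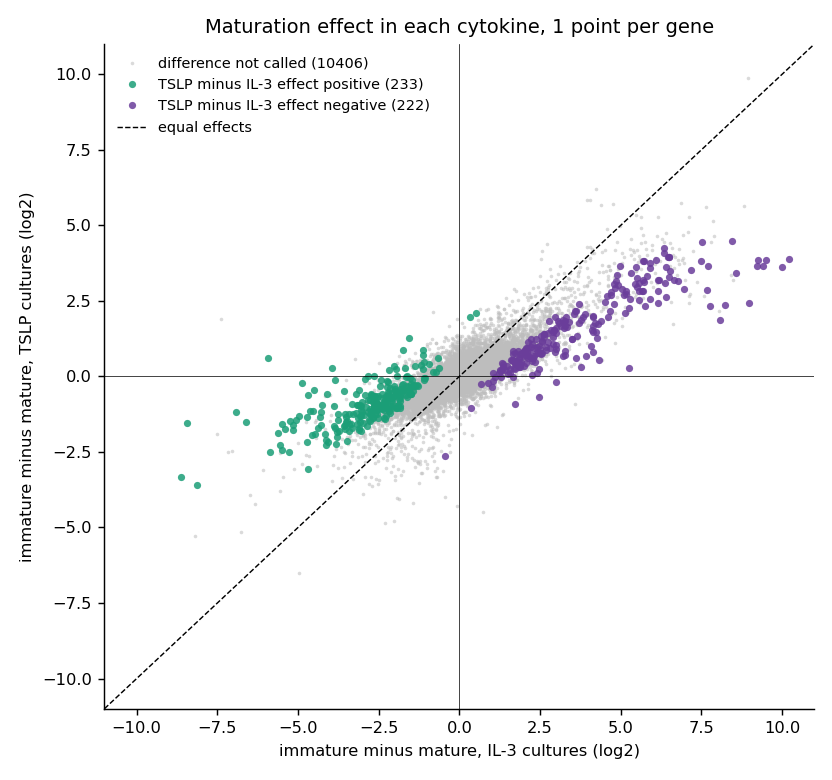
Maturation effect (immature minus mature, log2) of each tested gene in IL-3 cultures on the x axis and in TSLP cultures on the y axis, with equal effects on the dashed line. The 233 genes with a positive difference (green) sit almost entirely at negative x above the line and the 222 with a negative difference (purple) at positive x below it, nearer to y = 0 than the line.

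To see which group each difference came from, a group was said to stand apart when its fitted log2 level lay outside the other 3 by more than the range of those 3. An IL-3 group stood apart in 236 of the 455 genes and a TSLP group in 4, while 215 had no single group apart. Among all tested genes these shares were 32.9% and 10.7%, against 51.9% and 0.879% of the called genes. IL-3 immature cells were lowest in 102 genes, IL-3 mature cells lowest in 88 and highest in 39, and IL-3 immature cells highest in 7. The class is read from the same fitted levels as the difference, so it is a description and not a further test.

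**Figure D2:**
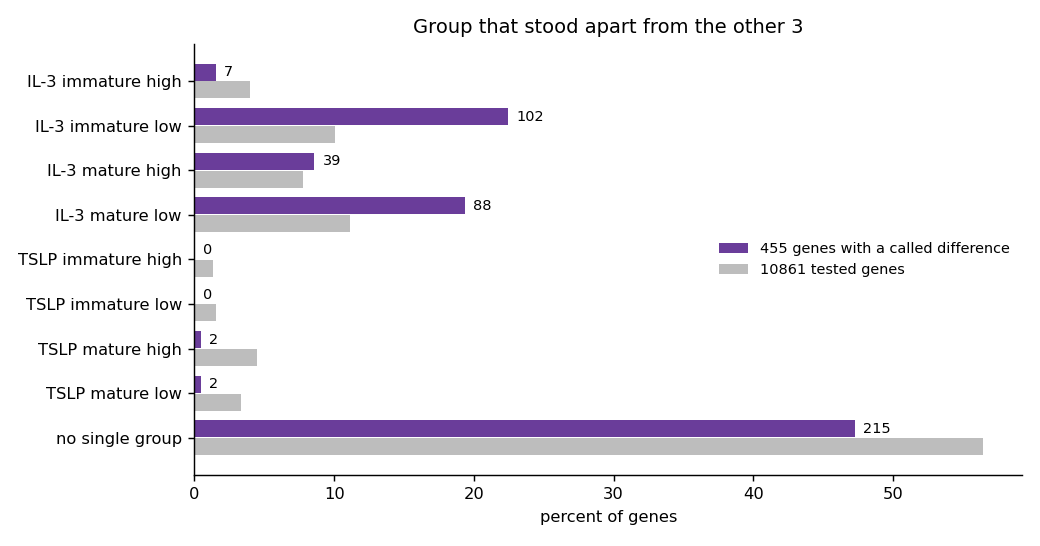
Percent of genes (x axis) in which each group (rows) stood apart as the highest or lowest, for genes with a called difference (purple, with their number) and for all tested genes (grey). The 2 longest bars of called genes with a group apart are IL-3 immature low (102) and IL-3 mature low (88), and no called gene had TSLP immature cells apart.

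The stage at which the cultures differed separated the directions. On the log2 scale 118 of 233 positive differences had a share of at least 0.75 of their size in immature cells and 31 had it in mature cells, while of 222 negative differences 121 had it in mature and 8 in immature cells. The first 118 were thus higher in TSLP than in IL-3 immature cells, and the 121 were higher in TSLP than in IL-3 mature cells. The gaps between the cultures and the difference of the maturation effects come from the same 12 libraries, so one does not support the other. This split belongs to the log scale. In mean CPM the gap between the cultures was larger in immature cells for 139 of the 222 negative differences. It was larger in mature cells for 148 of the 233 positive ones. The effect was smaller in TSLP in the same direction for 391 of the 455 genes in CPM and for 418 on the log2 scale.

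**Figure D3:**
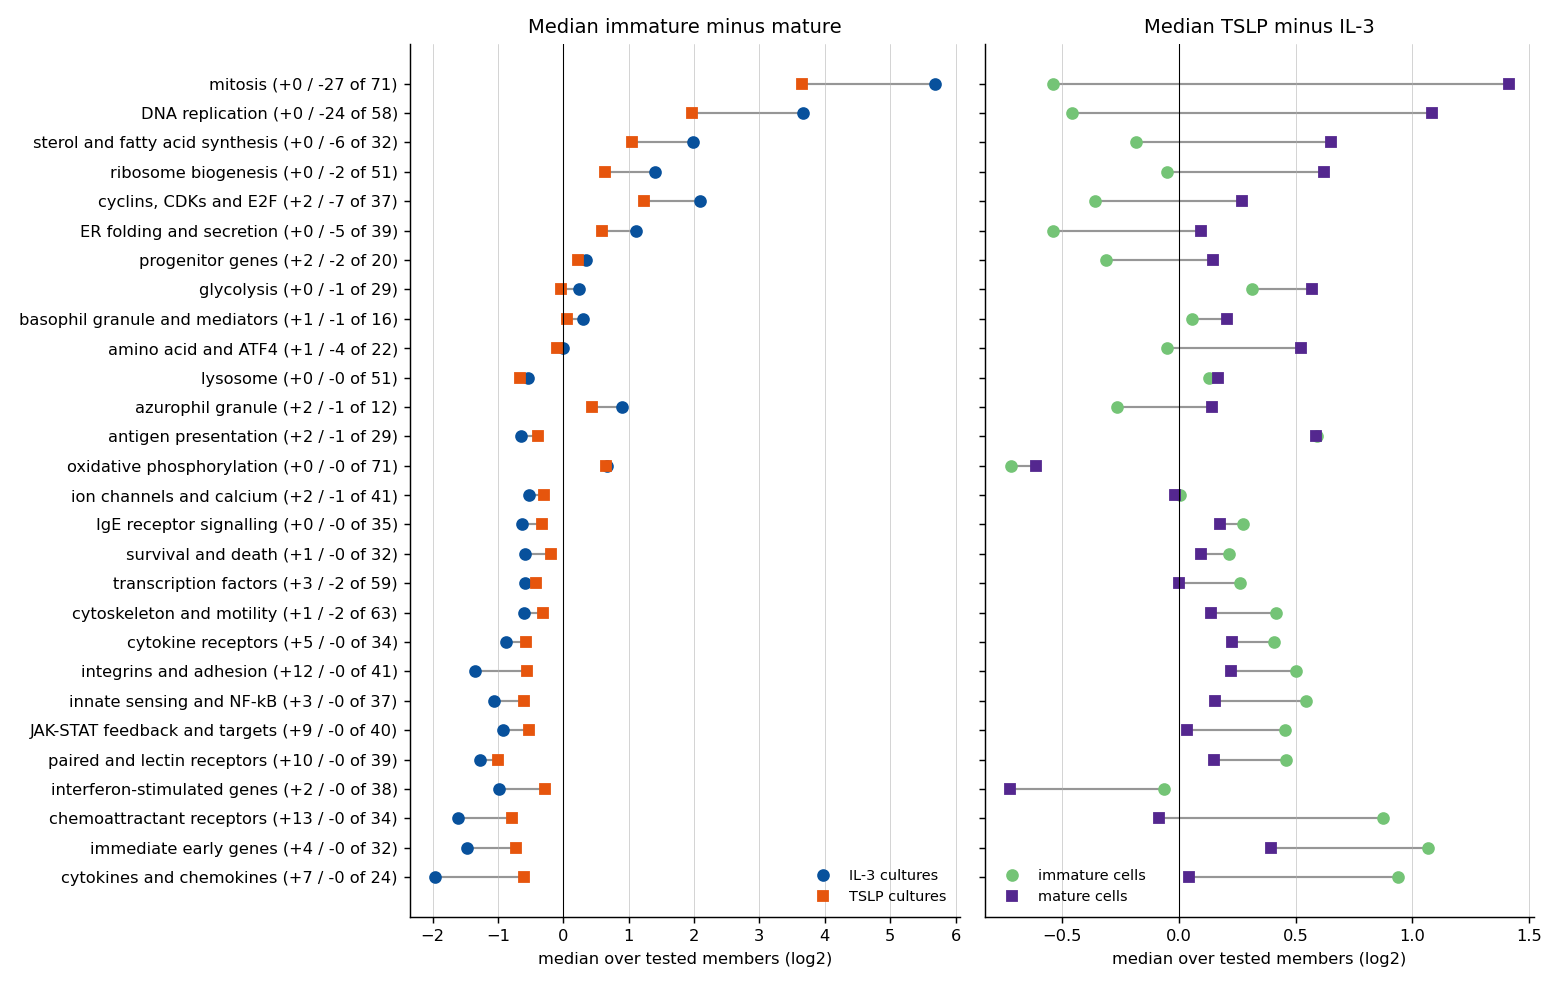
Medians over the tested members of 28 function lists (rows, with the number of members with positive and negative called differences). The left panel gives the maturation effect in IL-3 (circles) and TSLP (squares) and the right panel the TSLP minus IL-3 level in immature (circles) and mature cells (squares), all on the log2 scale: for mitosis the effects are 5.68 and 3.64, and the gap turns from -0.54 in immature to 1.41 in mature cells.

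Cell division genes gave the densest group of negative differences. Of 71 tested mitosis genes 27 were called, all negative, and of 58 DNA replication genes 24, all negative, against 2.04% of all genes. The median maturation effect of the mitosis genes was 5.68 in IL-3 and 3.64 in TSLP, and that of the replication genes 3.67 and 1.97, while the median difference was -1.96 and -1.73 against 0.02 over all genes. In 17 mitosis and 7 replication genes at least 1 group held 3 counts or fewer, and with such groups set to 3 counts the median differences were -1.93 and -1.55. The fall with maturation was called for 70 of 71 mitosis genes in IL-3 and for 70 in TSLP, against 22.1% and 12.2% of all genes, and 1 rose in IL-3. Whether either list differed more than other genes with as large a fall in IL-3 was not tested.

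Top2a, the topoisomerase that untangles chromosomes before division, was at 571, 537 and 511 CPM in immature and 6.06, 7.29 and 6.31 CPM in mature libraries of the IL-3 cultures. In TSLP, Top2a was at 347, 328 and 309 CPM in immature and 21.3, 18.7 and 17.2 CPM in mature libraries. The TSLP immature libraries lay below the IL-3 immature ones and the TSLP mature libraries above the IL-3 mature ones, with no overlap at either stage. Its maturation effect was 6.35 in IL-3 and 4.10 in TSLP, a difference of -2.26 ± 0.26, adjusted p = 0.00014. Mki67, the proliferation antigen, averaged 666 ± 65.8, 8.14 ± 1.35, 427 ± 24.2 and 22.6 ± 7.76 CPM (SD, n = 3) over IL-3 immature and mature and TSLP immature and mature libraries, in this order, and its difference was -2.10 ± 0.33, adjusted p = 0.002. Smc2 and Ncapd2, subunits of the condensin complex that compacts mitotic chromosomes, had differences of -2.31 ± 0.34, adjusted p = 0.0014, and -2.55 ± 0.40, adjusted p = 0.0019. Tmpo, a nuclear envelope protein, and Stmn1, which destabilises microtubules, followed with -2.07 ± 0.29 (adjusted p = 0.00064) and -3.47 ± 0.47 (adjusted p = 0.00048).

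Bub1, a kinase of the spindle checkpoint, had 427 counts in the 3 IL-3 immature libraries together and 0 in the IL-3 mature ones, so its level was at least 129-fold lower in mature cells with a floor of 3 counts over the group. In TSLP cultures it had 279 and 22 counts, a 15.1-fold difference (exact 95% counting interval 9.75 to 24.4). Intervals of this kind cover counting error only.

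Among the replication genes, Lig1, the ligase that joins Okazaki fragments, was at 205, 148 and 148 CPM in immature and 0.712, 2.55 and 0.451 CPM in mature libraries of the IL-3 cultures. In TSLP, Lig1 was at 68.9, 67.6 and 72.2 CPM in immature and 14.3, 7.66 and 5.85 CPM in mature libraries. IL-3 mature cells were nearly without it, and TSLP mature cells kept a level above every IL-3 mature library. The effect was 6.97 in IL-3 and 2.89 in TSLP, a difference of -4.08 ± 0.54, adjusted p = 0.00042. Uhrf1, which guides maintenance DNA methylation, Mcm2, a subunit of the replicative helicase, and Fen1, a flap endonuclease, had differences of -3.31 ± 0.53, -2.98 ± 0.51 and -2.26 ± 0.40 (adjusted p = 0.0024, 0.0033 and 0.0044). For Fen1 the IL-3 mature group stood apart as the lowest, at 4.27, 4.01 and 1.80 CPM against 11.1, 15.04 and 9.85 in TSLP mature libraries. Summed over the list, mature cells kept 19.2% of the immature level of replication genes in IL-3 and 38.4% in TSLP, and of mitosis genes 5.65% and 11.3%.

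The cyclin, CDK and E2F list held both directions, with 7 negative and 2 positive calls among 37 tested genes (24.3%, against 4.19% of all genes). Foxm1, the transcription factor of the G2 and M programme, and Ccnf, an F-box cyclin, were negative at -2.59 ± 0.55 and -1.69 ± 0.39 (adjusted p = 0.013 and 0.023). The positive ones were Ccnd2, a D-type cyclin, and Cdkn1a, which encodes the CDK inhibitor p21. Ccnd2 rose with maturation in both cultures, from 33.0, 28.3 and 21.9 to 263, 324 and 330.1 CPM in IL-3 and from 84.5, 76.2 and 94.3 to 349, 400.0 and 382 CPM in TSLP, a difference of 1.32 ± 0.26, adjusted p = 0.0088. Cdkn1a was at 76.2, 110.3 and 99.0 CPM in immature and 362, 382 and 449.6 CPM in mature libraries of the IL-3 cultures. In TSLP, Cdkn1a was at 112, 128 and 88.5 CPM in immature and 187, 205 and 137 CPM in mature libraries. The IL-3 mature group was the one apart (difference 1.37 ± 0.29, adjusted p = 0.013). The Foxm1 call was lost without IL-3 mature 2 (adjusted p = 0.064). The Cdkn1a call was lost without TSLP immature 2 (adjusted p = 0.051). The Ccnf call was lost in 5 of the 12 fits that each left out 1 library (adjusted p up to 0.089).

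Promoters of Top2a and Mki67 are shown because 27 mitosis genes differed in the same direction. The windows run from 250 bases before to 50 bases after a start site (RefSeq, GRCm38.p6), written 5′ to 3′ on the strand of the gene. That site need not be the first base of the gene record. Capitals mark the cell cycle homology region motif TTTGAA or TTCGAA on either strand, which binds the DREAM and MuvB complexes in cell cycle promoters. Of the 27 called mitosis genes 23 had a window, and 18 of these held the motif (78.3%), against 17.2% of 8256 tested genes and 21.7% of 27025 promoters. The CCAAT box, bound by NF-Y, was in 73.9% of them against 43.6% of tested genes. These matches describe the list and were not tested. Top2a lies at chr11:99024140-99024439 and Mki67 at chr7:135716330-135716629, both on the minus strand.
Top2a: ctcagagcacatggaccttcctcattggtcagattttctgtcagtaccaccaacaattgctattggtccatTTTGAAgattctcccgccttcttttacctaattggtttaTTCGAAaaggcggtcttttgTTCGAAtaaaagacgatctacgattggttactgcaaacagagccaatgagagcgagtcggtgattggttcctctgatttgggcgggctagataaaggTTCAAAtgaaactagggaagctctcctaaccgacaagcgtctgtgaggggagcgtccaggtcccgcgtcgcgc
Mki67: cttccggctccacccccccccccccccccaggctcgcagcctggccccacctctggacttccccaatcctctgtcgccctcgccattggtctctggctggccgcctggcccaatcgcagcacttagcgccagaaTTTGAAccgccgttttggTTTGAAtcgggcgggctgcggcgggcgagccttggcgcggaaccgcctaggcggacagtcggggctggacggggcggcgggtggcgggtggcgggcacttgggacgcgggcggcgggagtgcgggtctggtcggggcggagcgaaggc

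Genes of biosynthesis gave fewer negative differences. Of 32 sterol and fatty acid synthesis genes 6 were called (18.8%, against 2.04% of all genes in this direction), all negative, with a median difference of -0.84 and negative values in 30 of the 32. Fasn, fatty acid synthase, was at 73.7, 69.99 and 87.1 CPM in immature and 11.8, 9.84 and 14.4 CPM in mature libraries of the IL-3 cultures. In TSLP, Fasn was at 100.73, 113 and 121 CPM in immature and 47.2, 64.7 and 60.6 CPM in mature libraries. The IL-3 mature group was far below the other 3 and the TSLP mature libraries lay between the IL-3 stages. Its effect was 2.69 in IL-3 and 0.96 in TSLP, a difference of -1.73 ± 0.27, adjusted p = 0.002. In the mevalonate branch, which makes cholesterol, Fdps, Mvd and Sqle had differences of -1.88 ± 0.30, -2.54 ± 0.49 and -1.64 ± 0.38 (adjusted p = 0.002, 0.0078 and 0.023). The list summed to 2423 ± 64.1, 992 ± 35.2, 2072 ± 44.5 and 1325 ± 51.4 CPM in the 4 groups in the order given above (SD, n = 3), without overlap between any of them. The Sqle call was lost in 6 of the 12 fits that each left out 1 library (adjusted p up to 0.084).

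Tfrc, the transferrin receptor for iron uptake, stood at 50.5, 53.4 and 54.3 CPM in immature and 2.85, 2.91 and 3.16 CPM in mature libraries of the IL-3 cultures. In TSLP, Tfrc was at 56.8, 53.1 and 58.6 CPM in immature and 16.5, 21.0 and 15.7 CPM in mature libraries. The immature libraries of both cultures were close and the IL-3 mature ones lowest (difference -2.47 ± 0.29, adjusted p = 0.00018). The serine and glycine pathway enzymes Shmt2, Psat1 and Phgdh had differences of -2.65 ± 0.49, -2.47 ± 0.49 and -2.74 ± 0.58 (adjusted p = 0.0063, 0.0088 and 0.013). The glycine transporter Slc6a9 went the other way. It rose from 22.3, 19.7 and 25.5 to 119.7, 118 and 129 CPM in IL-3 and from 46.9, 51.2 and 64.7 to 119.5, 109 and 109 CPM in TSLP (difference 1.39 ± 0.24, adjusted p = 0.0042). The amino acid list as a whole had 4 negative calls and 1 positive call in 22 (22.7%, against 4.19% of all genes). Endoplasmic reticulum chaperones gave 5 negative calls in 39 (12.8%, against 2.04% of all genes in this direction). Among them were Calr (-1.28 ± 0.25), Pdia6 (-1.30 ± 0.25), Hyou1 (-1.23 ± 0.26) and Creld2 (-1.16 ± 0.30), with adjusted p of 0.0086, 0.0085, 0.013 and 0.042. For these the gap between the cultures lay at both stages, as Calr shows with 1261 ± 37.2, 189.7 ± 19.1, 729 ± 4.77 and 267 ± 56.6 CPM over IL-3 immature and mature and TSLP immature and mature libraries, in this order (SD, n = 3). The Phgdh call was lost without IL-3 mature 2 or IL-3 mature 3 (adjusted p up to 0.072). The Creld2 call was lost in 9 of the 12 fits that each left out 1 library (adjusted p up to 0.13), and without TSLP mature 1 the difference was -0.95, adjusted p = 0.0501.

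In the ribosome biogenesis list 50 of 51 genes had a negative difference, with a median of -0.74. Only 2 were called, both negative (3.92%, against 4.19% of all genes and 2.04% in this direction). These were Tsr1, a ribosome assembly factor (-2.56 ± 0.43, adjusted p = 0.0031), and Polr1e, a subunit of RNA polymerase I (-2.22 ± 0.58, adjusted p = 0.043). Oxidative phosphorylation gave another picture. 0 of its 71 genes were called by edgeR and 1 by DESeq2, 7 had an unadjusted p under 0.05, the medians were 0.67 in IL-3 and 0.66 in TSLP, and the smallest p belonged to Ndufv2 (-0.91 ± 0.29, adjusted p = 0.092). The level of this list instead differed between the cultures at both stages, with median gaps of -0.72 in immature and -0.61 in mature cells. Of its 71 genes 16 were lower in TSLP immature and 31 lower in TSLP mature cells, where 8 others were higher. Of all genes 5.9% and 11.9% were lower, out of 13.3% and 24.3% called in either direction. The summed level of the list was 5056, 3272 and 2762 CPM in TSLP mature 1, 2 and 3, against 5111 to 5763 CPM in IL-3 mature libraries. In glycolysis 1 of 29 genes was called (3.45%, against 2.04% of all genes in this direction), the pentose phosphate enzyme Tkt (-1.03 ± 0.27, adjusted p = 0.043). The calls of Polr1e and Tkt were lost in 10 and 8 of the 12 fits that each left out 1 library (adjusted p up to 0.14 and 0.14). The Polr1e difference was -1.97 without TSLP mature 1, adjusted p = 0.063.

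**Figure D4:**
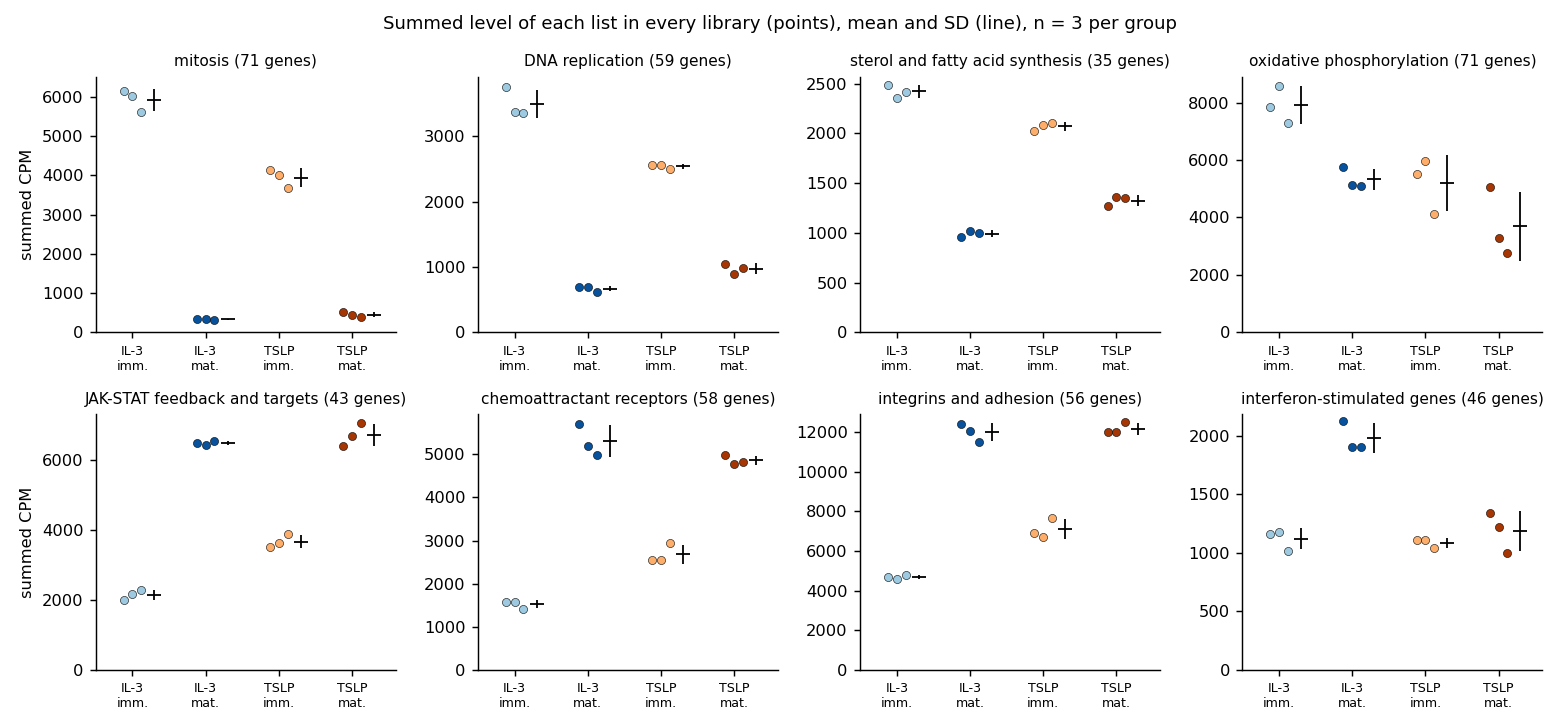
Summed CPM of the members of 8 lists in each library (points, y axis), by group (x axis), with the mean and SD of 3 libraries. The mitosis, replication and lipid sums fall less steeply in TSLP than in IL-3, the JAK-STAT, chemoattractant receptor and adhesion sums start higher in TSLP immature libraries, and the interferon-stimulated sum is highest in the 3 IL-3 mature libraries.

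Maturation raised 24 of 40 tested JAK-STAT feedback genes and targets in IL-3 and 17 in TSLP, against 24.1% and 12.9% of all genes. Of the 40, 9 had a called difference (22.5%, against 2.15% of all genes in this direction), all positive, and for 6 of these the gap lay in immature cells. The median difference was 0.46, the median gap 0.45 in immature and 0.04 in mature cells, and 14 genes were higher in TSLP than in IL-3 immature cells (7.38% of all genes were) with 0 lower. Summed over the 43 genes, the levels were 2137 ± 143, 6476 ± 59.6, 3661 ± 181 and 6705 ± 319 CPM (SD, n = 3) in the order used for Mki67. The mature groups overlapped and the immature ones did not.

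Socs3, which blocks cytokine receptor signalling, was at 5.34, 5.71 and 5.63 CPM in immature and 258, 248 and 281 CPM in mature libraries of the IL-3 cultures. In TSLP, Socs3 was at 26.2, 36.3 and 36.1 CPM in immature and 147, 161 and 163 CPM in mature libraries. It rose in both cultures, from a level several times higher in TSLP immature cells to a level lower than that of IL-3 in mature cells. Its effect was -5.54 in IL-3 and -2.26 in TSLP, a difference of 3.29 ± 0.27, adjusted p = 4.5e-06. Cish, a STAT5 target that dampens STAT5, was at 6.79, 11.1 and 14.6 CPM in immature and 100.80, 92.2 and 81.6 CPM in mature libraries of the IL-3 cultures. In TSLP, Cish was at 104, 104 and 147 CPM in immature and 233, 238 and 235 CPM in mature libraries. IL-3 immature cells stood apart as the lowest, and TSLP immature libraries already exceeded every IL-3 mature one (difference 2.05 ± 0.31, adjusted p = 0.0017). Lif, a cytokine of the IL-6 family, had 10 counts in the IL-3 immature libraries together and was at 25.6, 32.1 and 37.4 CPM in IL-3 mature, 114, 112 and 129.7 in TSLP immature and 147, 222 and 175 in TSLP mature libraries (difference 4.09 ± 0.41, adjusted p = 4.8e-05). Osm, another member of that family, averaged 154 ± 36.2, 1281 ± 67.9, 526 ± 75.4 and 1292 ± 94.5 CPM in the 4 groups in the order above (SD, n = 3). The mature groups overlapped, and the difference was 1.75 ± 0.28, adjusted p = 0.002.

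Of 34 cytokine receptor genes 5 were called (14.7%, against 2.15% of all genes in this direction), all positive. Il7r, the alpha chain shared by the IL-7 and TSLP receptors, was at 10.7, 9.14 and 4.64 CPM in immature and 263, 259 and 232 CPM in mature libraries of the IL-3 cultures. In TSLP, Il7r was at 38.2, 32.0 and 31.7 CPM in immature and 82.6, 94.2 and 76.6 CPM in mature libraries. It rose in both, from a higher level and to a lower one in TSLP, with effects of -4.96 in IL-3 and -1.31 in TSLP and a difference of 3.65 ± 0.31, adjusted p = 8.4e-06. Il18r1, a chain of the receptor through which IL-18 activates basophils, averaged 177 ± 20.4, 591 ± 42.5, 284 ± 20.9 and 386 ± 68.2 CPM in the same order (SD, n = 3) and differed by 1.29 ± 0.25, adjusted p = 0.0085. Il4ra, a chain of the IL-4 and IL-13 receptors, rose from 3.396, 3.43 and 1.66 to 17.1, 18.2 and 15.8 CPM in IL-3 and from 10.5, 14.8 and 19.7 to 26.4, 28.4 and 26.8 CPM in TSLP (1.73 ± 0.40, adjusted p = 0.022). The Il4ra call was lost without IL-3 immature 3 or IL-3 mature 2 (adjusted p up to 0.06). Ifngr2, the second chain of the interferon gamma receptor, was highest in IL-3 mature cells, at 109, 118 and 111 CPM against 64.5, 53.6 and 48.9 in TSLP mature libraries (1.40 ± 0.23, adjusted p = 0.0025). Il7r is also on the marker list of T cells, NK cells and innate lymphoid cells. Of that list Cd3e, Klrb1c and Ncr1 were at most at 1.08, 0.356 and 1.17 CPM in any library, and Cd8a at 5.67 CPM. Nkg7, also on it, went opposite to Il7r, with 45.4 to 49.4 CPM in IL-3 immature and 1.42 to 2.91 CPM in IL-3 mature libraries. The part of such cells in the Il7r levels was not tested.

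Promoters of Cish, Socs3 and Il7r are shown because they are called signalling genes whose window holds a STAT motif, TTCNNNGAA (N is any base, the same read on both strands), which capitals mark. Of the called JAK-STAT genes 7 had a window and 2 held the motif, against 8.39% of tested genes and 9.55% of all promoters, while 13.7% of the genes with a positive and 7.89% of those with a negative difference held it. Cish has 2 copies at the start site of its window. Socs3 has 1 copy whose first base lies 154 bases before its site, and Il7r 1 copy 142 bases before its own. The windows of these genes lie inside the gene records, which begin at 107296026 for Cish, 117970047 for Socs3 and 9530176 for Il7r. Positions counted from the beginning of the records would therefore differ. The windows are chr9:107296409-107296708 on the plus strand for Cish, chr11:117969317-117969616 on the minus strand for Socs3 and chr15:9529827-9530126 on the minus strand for Il7r (RefSeq, GRCm38.p6).
Cish: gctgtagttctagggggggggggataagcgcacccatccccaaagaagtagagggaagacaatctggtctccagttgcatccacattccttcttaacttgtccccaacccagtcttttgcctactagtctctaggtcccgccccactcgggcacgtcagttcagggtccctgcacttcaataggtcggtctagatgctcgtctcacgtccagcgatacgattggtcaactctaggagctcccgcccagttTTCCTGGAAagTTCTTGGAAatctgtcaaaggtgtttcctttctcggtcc
Socs3: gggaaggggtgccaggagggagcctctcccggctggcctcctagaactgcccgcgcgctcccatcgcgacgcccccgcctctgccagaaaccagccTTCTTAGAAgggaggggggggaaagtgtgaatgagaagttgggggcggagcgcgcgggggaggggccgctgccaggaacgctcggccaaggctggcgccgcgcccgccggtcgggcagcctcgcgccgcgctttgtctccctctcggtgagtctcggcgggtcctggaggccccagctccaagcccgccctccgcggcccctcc
Il7r: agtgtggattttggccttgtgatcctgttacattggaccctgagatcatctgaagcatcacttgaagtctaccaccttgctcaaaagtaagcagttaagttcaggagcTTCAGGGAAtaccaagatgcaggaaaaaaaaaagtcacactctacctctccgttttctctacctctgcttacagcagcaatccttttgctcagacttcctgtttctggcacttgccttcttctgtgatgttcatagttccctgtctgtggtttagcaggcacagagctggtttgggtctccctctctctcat

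Cytokine and chemokine genes gave 7 positive calls and 0 negative in 24 tested (29.2%, against 2.15% of all genes in the positive direction). Their median difference of 1.21 was the highest positive one of the 28 lists. Ccl6 and Ccl4, chemokines that attract myeloid cells and lymphocytes, and Csf1, the macrophage growth factor, rose with maturation in both cultures. Ccl6 was at 2183, 2533 and 2286 CPM in immature and 17812, 14341 and 14511 CPM in mature libraries of the IL-3 cultures. In TSLP, Ccl6 was at 5882, 6015 and 7488 CPM in immature and 19182, 11697 and 12260.2 CPM in mature libraries. Its TSLP immature libraries were well above the IL-3 immature ones and the mature libraries overlapped (1.58 ± 0.31, adjusted p = 0.0087). Ccl4 and Csf1 differed by 1.58 ± 0.26 and 1.60 ± 0.25 (adjusted p = 0.003 and 0.002). Cxcl2, a ligand of Cxcr2, had another pattern, at 5.34, 7.14 and 3.64 CPM in immature and 27.8, 25.1 and 49.6 CPM in mature libraries of the IL-3 cultures. In TSLP, Cxcl2 was at 6.92, 10.5 and 9.53 CPM in immature and 11.3, 5.96 and 9.23 CPM in mature libraries, with an effect of -2.63 in IL-3 and 0.01 in TSLP and a difference of 2.64 ± 0.49, adjusted p = 0.006.

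Chemoattractant receptors had 13 called differences in 34 tested (38.2%, against 2.15% of all genes in this direction), all positive. Maturation raised 29 of them in IL-3 and 19 in TSLP, against 24.1% and 12.9% of all genes. Cxcr2, the receptor for neutrophil-attracting chemokines, was at 89.3, 90.6 and 75.5 CPM in immature and 1010.5, 913 and 948 CPM in mature libraries of the IL-3 cultures. In TSLP, Cxcr2 was at 227, 229 and 243 CPM in immature and 659.9, 642 and 631 CPM in mature libraries. TSLP spanned a narrower range at both ends (2.03 ± 0.22, adjusted p = 0.00013). C3ar1, the receptor for complement fragment C3a, was at 44.5 ± 3.07, 531 ± 30.2, 130.3 ± 14.8 and 411 ± 51.4 CPM in the 4 groups (SD, n = 3; 1.92 ± 0.24, adjusted p = 0.0003), and Gpr183, an oxysterol receptor, had a difference in the same direction (1.83 ± 0.29, adjusted p = 0.0024). Ccr2, which follows CCL2, separated from these. It was at 69.9, 85.4 and 66.9 CPM in immature and 357, 344 and 319 CPM in mature libraries of the IL-3 cultures. In TSLP, Ccr2 was at 101.33, 98.1 and 110.0 CPM in immature and 117, 124 and 114 CPM in mature libraries. The 3 IL-3 mature libraries were above all others, and the effect was -2.20 in IL-3 and -0.20 in TSLP with a difference of 1.998 ± 0.22, adjusted p = 0.00014. Cxcr2 is also a neutrophil marker and Ccr2 a monocyte marker. Without TSLP mature 1, the library with high values of both marker lists, the differences were 2.09, adjusted p = 2.3e-05, for Cxcr2 and 2.04, adjusted p = 3.4e-05, for Ccr2. Of the 12 neutrophil markers Cxcr2 itself made up most of the sum, with 1010.5 of 1456 CPM in IL-3 mature 1. Ly6g reached 8.19 CPM at most in any library, in IL-3 mature 1, and Camp 20.8, while Ngp and Ltf reached 154 and 58.0 CPM in TSLP mature 1. Within IL-3 cultures Ly6g, Camp, Ngp, Ltf, Mmp8 and Mmp9 were higher in every mature than in every immature library, and Cd177 did not rise. Ly6g was at 0 to 0.286 CPM in immature and 5.83 to 8.19 CPM in mature libraries, and Ngp at 2.32 to 8.73 and 17.5 to 23.9. Several other neutrophil markers had no overlap between the stages in IL-3 cultures either. Lcn2 went down, with 92.2 to 120 CPM in immature and 20.3 to 25.6 CPM in mature libraries, while those that follow went up. Retnlg, itself called (3.37, adjusted p = 0.021), was at 3.396 to 5.63 CPM in immature and 87.8 to 119 CPM in mature libraries, S100a9 at 18.2 to 40.8 and 98.7 to 132, and S100a8 at 11.9 to 28.3 and 47.7 to 86.9. Their maturation effects in IL-3 had adjusted p of 5.8e-06, 0.14 and 0.14, and in TSLP mature 1 they were at 39.7, 283 and 135 CPM. The part of other cells in the rise within IL-3 cultures was not tested.

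Adhesion genes had 12 positive calls in 41 (29.3%, against 2.15% of all genes in this direction). In 9 of the 12, IL-3 immature cells stood apart as the lowest group. Itga2, the gene for the CD49b of the gate, was at 31.0, 28.3 and 22.5 CPM in immature and 192, 239.7 and 309 CPM in mature libraries of the IL-3 cultures. In TSLP, Itga2 was at 81.5, 89.1 and 88.5 CPM in immature and 96.9, 209 and 199 CPM in mature libraries. In IL-3 the stages were far apart, while TSLP immature libraries reached 89.1 CPM and TSLP mature 1, the library with other cells' markers, had 96.9 CPM against 209 and 199 in the others. The difference for Itga2 was 2.22 ± 0.37, adjusted p = 0.0029, and without TSLP mature 1 it was 1.99, adjusted p = 0.00028. Cd24a, a glycosylated surface protein of immature leukocytes, and Adgre1, which encodes F4/80, had 2.23 ± 0.34, adjusted p = 0.0017, and 2.65 ± 0.32, adjusted p = 0.00018. Adgre1 was at 5.34, 3.14 and 3.64 CPM in immature and 113, 89.6 and 78.9 CPM in mature libraries of the IL-3 cultures. In TSLP, Adgre1 was at 46.0, 49.2 and 58.9 CPM in immature and 173, 214 and 199 CPM in mature libraries. Adgre1 is also 1 of 12 monocyte or macrophage markers, of which 11 were tested and Ly6c2 and Ccr2 were called too. Ly6c2 was at 6.62 to 10.2 CPM in immature and 126 to 162 CPM in mature libraries of the IL-3 cultures and at 35.2 to 53.5 and 127 to 328 in those of TSLP (1.87, adjusted p = 0.031). C1qa and Ms4a7 reached at most 12.4 and 8.19 CPM in any library and C1qb and Lyz2 51.0 and 901 CPM, with C1qa, C1qb, Lyz2 and Ly6c2 highest in TSLP mature 1. Without that library the Adgre1 difference was 2.62, adjusted p = 6.4e-05. The part of other cells in the Adgre1 levels was not tested. Adam19, a metalloprotease, had 1 count in the IL-3 immature libraries and 119, 104 and 350 in the others.

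Paired and lectin receptors, which set the threshold of myeloid cell activation, had 10 positive calls in 39 (25.6%, against 2.15% of all genes in this direction). Cd300lf, an inhibitory receptor for lipids, was at 13.6, 14.3 and 9.60 CPM in immature and 147, 119.8 and 134 CPM in mature libraries of the IL-3 cultures. In TSLP, Cd300lf was at 79.7, 62.9 and 89.5 CPM in immature and 203, 170.2 and 177 CPM in mature libraries, and the difference was 2.18 ± 0.28, adjusted p = 0.00034. Lilrb4a, another inhibitory receptor, averaged 567 ± 18.5, 3711 ± 294, 1569.9 ± 185 and 3462 ± 223 CPM (SD, n = 3) in the order used above. Pilrb1, an activating one, had 13 counts in IL-3 immature libraries together and was at 21.0, 22.6 and 25.7 CPM in IL-3 mature, 37.0, 30.9 and 36.4 in TSLP immature and 84.2, 51.1 and 69.2 in TSLP mature libraries. Their differences were 1.57 ± 0.24, adjusted p = 0.0018, and 2.92 ± 0.38, adjusted p = 0.00036. For all 3 receptors the IL-3 immature group stood apart as the lowest.

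Innate sensing genes had 3 positive calls in 37 (8.11%, against 2.15% of all genes in this direction), each with IL-3 immature cells lowest. Tlr1, which pairs with Tlr2 to sense lipoproteins, had 6 counts in the IL-3 immature libraries together and 210, 113 and 406 in the mature IL-3 and the immature and mature TSLP ones (3.57 ± 0.49, adjusted p = 0.00064). Traf1, an adaptor of TNF receptors, had 0 and 128 counts in IL-3 and 11 and 133 in TSLP, so the rise in IL-3 was at least 47.1-fold with a floor of 3 counts and that in TSLP 10.2-fold (exact 95% counting interval 5.51 to 20.9). Its adjusted p was 0.031. Nlrp3, the inflammasome sensor, differed by 1.54 ± 0.38, adjusted p = 0.033. The calls of Traf1 and Nlrp3 were lost in 7 and 7 of the 12 fits that each left out 1 library (adjusted p up to 0.081 and 0.074), and the list fell to 1 call without IL-3 immature 2, IL-3 immature 3, IL-3 mature 3 or TSLP immature 3.

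Immediate early genes, which respond to a stimulus within minutes and can also respond to handling, had 4 positive calls in 32 (12.5%, against 2.15% of all genes in this direction), and 20 of them were higher in TSLP than in IL-3 immature cells, against 7.38% of all genes. Zfp36, which destabilises cytokine mRNAs, was at 237, 446 and 366 CPM in immature and 2311, 2787 and 3744 CPM in mature libraries of the IL-3 cultures. In TSLP, Zfp36 was at 815, 1124 and 1177 CPM in immature and 2501, 2829 and 2379.7 CPM in mature libraries (1.77 ± 0.35, adjusted p = 0.0086). Cd69, an early activation antigen, and Zfp36l1 differed by 1.45 ± 0.30 and 1.47 ± 0.30 (adjusted p = 0.01 and 0.011). The regulator Bhlhe40 rose from 9.70, 12.6 and 9.60 to 105, 97.3 and 94.7 CPM in IL-3 and from 63.4, 69.5 and 68.8 to 155, 154 and 161 CPM in TSLP (1.98 ± 0.23, adjusted p = 0.00018). It led the transcription factor list, where 3 positive and 2 negative calls were made in 59 (8.47%, against 4.19% of all genes). Others were Nfil3 (1.23 ± 0.26, adjusted p = 0.013), Tal1 (0.97 ± 0.24, adjusted p = 0.034) and the progenitor factor Myb (-2.14 ± 0.48, adjusted p = 0.018). The Myb call was lost without IL-3 immature 2, IL-3 mature 2 or TSLP mature 2 (adjusted p up to 0.076). The Tal1 call was lost in 9 of the 12 fits that each left out 1 library (adjusted p up to 0.089).

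**Figure D5:**
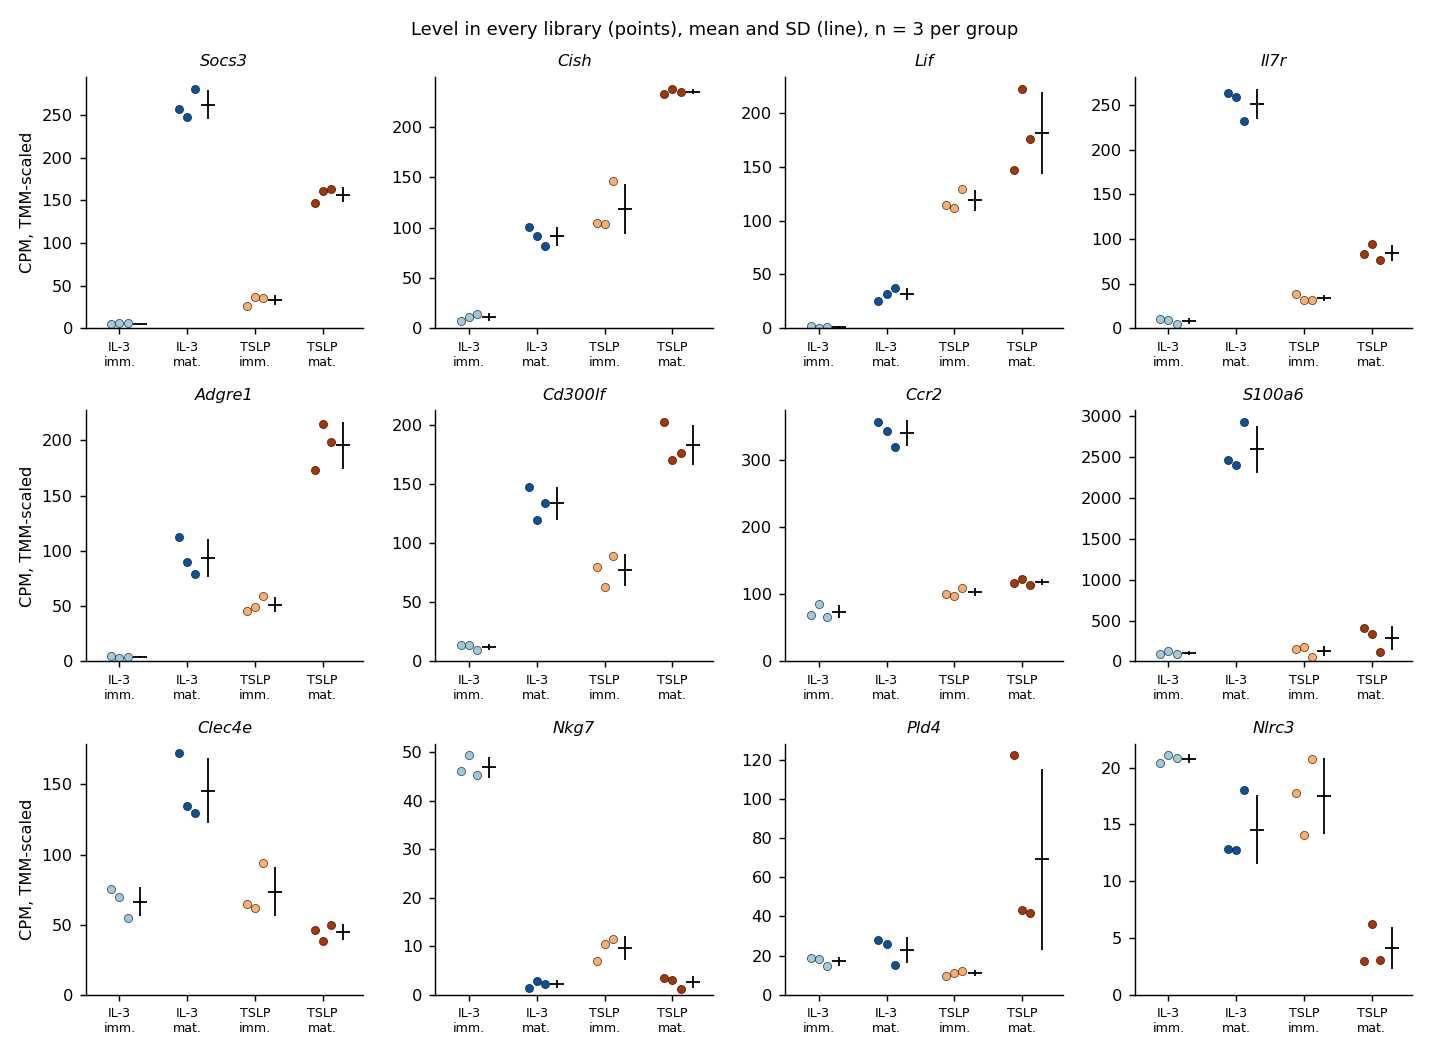
CPM (y axis, from 0) of 12 named genes in each library (points) by group (x axis), with the mean and SD of 3 libraries. Socs3, Cish, Lif, Adgre1 and Cd300lf start higher in TSLP immature than in IL-3 immature libraries, Ccr2 and S100a6 are high in IL-3 mature libraries, Nkg7 in IL-3 immature libraries, Pld4 is highest in TSLP mature 1 and Nlrc3 is lowest in TSLP mature libraries.

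Large differences were also found outside the lists. Kbtbd11, a BTB domain protein, had 4 counts in IL-3 immature libraries and was at 24.9, 34.2 and 33.4 CPM in IL-3 mature, 14.7, 14.1 and 16.3 in TSLP immature and 11.3, 8.80 and 9.23 in TSLP mature ones (6.54 ± 0.43, adjusted p = 6.8e-07). Asb2, the recognition part of a ubiquitin ligase, was at 3.396, 2.29 and 3.31 CPM in immature and 99.4, 114 and 124 CPM in mature libraries of the IL-3 cultures. In TSLP, Asb2 was at 70.4, 62.5 and 80.4 CPM in immature and 198, 196 and 193 CPM in mature libraries, a difference of 3.78 ± 0.29, adjusted p = 2.5e-06. Nek6, a mitotic kinase, had the same order of groups, at 1.58 ± 0.655, 55.6 ± 1.49, 31.3 ± 6.48 and 84.1 ± 10.1 CPM (SD, n = 3), with 3.63 ± 0.36, adjusted p = 4.8e-05. In all 3 the IL-3 immature group stood apart as the lowest, and every TSLP immature library of Asb2 and Nek6 was below the IL-3 mature ones.

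In 39 genes the IL-3 mature group stood apart as the highest. S100a6, a calcium-binding protein, was at 95.6, 130.3 and 86.7 CPM in immature and 2463, 2401 and 2927 CPM in mature libraries of the IL-3 cultures. In TSLP, S100a6 was at 150.0, 182 and 54.5 CPM in immature and 407, 333 and 121 CPM in mature libraries. It rose in IL-3 cultures well past every other library, and the TSLP libraries were spread widely, with TSLP mature 3 below TSLP immature 1 and 2. Its effect was -4.64 in IL-3 and -1.16 in TSLP, a difference of 3.48 ± 0.58, adjusted p = 0.0027. Ifitm1, an interferon-induced membrane protein, averaged 739.7 ± 81.4, 4099 ± 464, 1258 ± 347 and 1575 ± 737 CPM (SD, n = 3) in the order used above, with 2.14 ± 0.42, adjusted p = 0.0082. Rgs2, which shortens G protein signalling, and Kcnj2, a potassium channel, differed by 1.48 ± 0.24, adjusted p = 0.0025, and 1.56 ± 0.32, adjusted p = 0.01. Kcnj2 was at 23.8, 28.0 and 23.5 CPM in immature and 51.3, 56.5 and 64.0 CPM in mature libraries of the IL-3 cultures. In TSLP, Kcnj2 was at 28.0, 30.5 and 37.1 CPM in immature and 15.6, 29.8 and 28.0 CPM in mature libraries. It rose in IL-3 (adjusted p = 0.00047) and had an effect of 0.38 in TSLP (adjusted p = 0.24).

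Of 38 tested interferon-stimulated genes 2 were called, both positive (5.26%, against 4.19% of all genes and 2.15% in this direction). The median difference of the list was 0.64 against 0.02 over all genes, with positive values in 36 of the 38. Maturation raised 22 of them in IL-3 and 3 in TSLP, against 24.1% and 12.9% of all genes. In mature cells the median gap was -0.72 and 17 genes were lower in TSLP (11.9% of all genes were), against a median of -0.06 in immature cells. Summed over the list, the levels were 1119 ± 89.9, 1977 ± 128, 1085 ± 41.3 and 1184 ± 170.4 CPM (SD, n = 3), and the 3 IL-3 mature libraries were above all others. The called genes were Slfn2 (1.15 ± 0.26, adjusted p = 0.017) and Gbp2 (1.15 ± 0.29, adjusted p = 0.034). The Slfn2 call was lost without IL-3 immature 2 or TSLP immature 1 (adjusted p up to 0.052). The Gbp2 call was lost in 9 of the 12 fits that each left out 1 library (adjusted p up to 0.088). Without TSLP mature 1 the list held 8 calls, in a fit that called 723 of 11020 tested genes.

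In another class IL-3 immature cells stood apart as the highest, with 7 genes. Nkg7, a protein of cytotoxic granules, was at 46.1, 49.4 and 45.4 CPM in immature and 1.42, 2.91 and 2.25 CPM in mature libraries of the IL-3 cultures. In TSLP, Nkg7 was at 6.92, 10.5 and 11.6 CPM in immature and 3.51, 3.12 and 1.23 CPM in mature libraries. TSLP immature libraries were at a level between the IL-3 stages, and the mature groups overlapped (difference -2.56 ± 0.51, adjusted p = 0.0093). Stom, a membrane scaffold protein, E2f1, a driver of S phase entry, and Scin, an actin-severing protein, differed by -1.95 ± 0.43, -1.29 ± 0.33 and -1.42 ± 0.38 (adjusted p = 0.016, 0.037 and 0.048). The calls of Stom, E2f1 and Scin were lost in 4, 10 and 9 of the 12 fits that each left out 1 library (adjusted p up to 0.063, 0.11 and 0.17).

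In 2 genes maturation was called in both cultures in opposite directions. Clec4e, the lectin receptor Mincle that senses mycobacterial glycolipid, was at 75.2, 69.4 and 54.6 CPM in immature and 172, 135 and 129 CPM in mature libraries of the IL-3 cultures. In TSLP, Clec4e was at 64.6, 62.1 and 94.0 CPM in immature and 45.9, 38.3 and 49.8 CPM in mature libraries. It rose in IL-3 and fell in TSLP with no overlap between the stages in either culture, with effects of -1.14 in IL-3 and 0.72 in TSLP and a difference of 1.86 ± 0.29, adjusted p = 0.002. F13a1, the A chain of coagulation factor XIII, was at 23.3, 21.1 and 31.5 CPM in immature and 44.2, 36.8 and 39.7 CPM in mature libraries of the IL-3 cultures. In TSLP, F13a1 was at 175, 166 and 198 CPM in immature and 107, 127 and 119 CPM in mature libraries. Its effects were -0.67 in IL-3 and 0.61 in TSLP, a difference of 1.28 ± 0.26, adjusted p = 0.0094. Its TSLP libraries were above all IL-3 libraries at both stages. Without TSLP mature 1 the differences were 1.92, adjusted p = 0.0005, and 1.26, adjusted p = 0.0045.

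In 4 genes the called effect was larger in TSLP, and in each of them TSLP mature cells were the group apart. Pld4, a lysosomal exonuclease, and Tbxas1, thromboxane synthase, were high. Pld4 was at 18.9, 18.0 and 14.6 CPM in immature and 27.8, 25.9 and 15.3 CPM in mature libraries of the IL-3 cultures. In TSLP, Pld4 was at 9.62, 11.3 and 12.3 CPM in immature and 122, 43.1 and 41.5 CPM in mature libraries. The TSLP mature libraries were above all others, and TSLP mature 1 held more than the other TSLP mature libraries together. The difference was -2.21 ± 0.54, adjusted p = 0.029, and without TSLP mature 1 it was -1.45, adjusted p = 0.012. Tbxas1 was at 13.1, 15.7 and 11.9 CPM in immature and 11.4, 10.6 and 9.47 CPM in mature libraries of the IL-3 cultures. In TSLP, Tbxas1 was at 10.2, 7.42 and 13.3 CPM in immature and 25.9, 18.4 and 20.0 CPM in mature libraries (-1.42 ± 0.35, adjusted p = 0.031, and -1.22, adjusted p = 0.042, without TSLP mature 1). Both genes moved with the B cell, dendritic cell and monocyte markers of TSLP mature 1, whose part was not tested beyond leaving that library out. The calls of Pld4 and Tbxas1 were lost in 8 and 7 of the 12 fits that each left out 1 library (adjusted p up to 0.092 and 0.1).

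Nlrc3, an inhibitory sensor of the NOD-like family, and Zranb3, a helicase that remodels stalled replication forks, were low in TSLP mature cells. Nlrc3 was at 20.4, 21.1 and 20.9 CPM in immature and 12.8, 12.7 and 18.0 CPM in mature libraries of the IL-3 cultures. In TSLP, Nlrc3 was at 17.7, 14.1 and 20.8 CPM in immature and 2.97, 6.24 and 3.08 CPM in mature libraries. Zranb3 was at 1.89, 3.97 and 3.38 CPM in TSLP mature libraries against 14.96, 13.1 and 16.2 in IL-3 mature ones. Their differences were 1.56 ± 0.39, adjusted p = 0.034, and 1.63 ± 0.42, adjusted p = 0.04. Leaving out TSLP mature 1 gave 1.41, adjusted p = 0.04, and 1.41, adjusted p = 0.056. The calls of Nlrc3 and Zranb3 were lost in 8 and 9 of the 12 fits that each left out 1 library (adjusted p up to 0.082 and 0.094).

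Lysosome genes had 0 edgeR calls in 51 (2 by DESeq2) and IgE receptor signalling genes 0 in 35 (2 by DESeq2), and the highest counts under any alternative were 6 and 8. Maturation raised 21 and 19 of them in IL-3 and 30 and 14 in TSLP, against 24.1% of all genes in IL-3 and 12.9% in TSLP. Unadjusted p was under 0.05 for 10 lysosome and 9 IgE signalling genes. The smallest p in these lists belonged to Man2b1, a lysosomal mannosidase (0.75 ± 0.23, adjusted p = 0.085), and Itpr1, a calcium release channel (-1.45 ± 0.42, adjusted p = 0.061). Itpr1 was called in 5 of 21 alternatives, among them the replicate block (-1.38, adjusted p = 0.043) and the fit without TSLP mature 1 (-1.72, adjusted p = 0.0039), and Man2b1 in 3 of 21, also without that library (0.78, adjusted p = 0.042). These lists held 4 and 5 calls without TSLP mature 1, in a fit that called 723 of 11020 tested genes.

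Both granule proteases fell with maturation in both cultures. Mcpt8, a basophil protease, averaged 16127 ± 479, 4990.4 ± 685, 8765 ± 239 and 2898 ± 1161 CPM (SD, n = 3) over IL-3 immature and mature and TSLP immature and mature libraries, in this order, with effects of 1.69 in IL-3 and 1.60 in TSLP and a difference of -0.10 (95% interval -0.80 to 0.61, adjusted p = 0.92). Prss34, another one, had effects of 4.64 in IL-3 and 3.64 in TSLP and a difference of -1.003 (-1.63 to -0.38, adjusted p = 0.067), which was called in 4 of 21 alternatives (adjusted p down to 0.0073). Fcer1a, the alpha chain of the IgE receptor and the second gene of the gate, had a difference of -0.56 (-1.27 to 0.15), the tetraspanin Cd9 0.52 (-0.11 to 1.14) and the inhibitory lectin Clec12a -0.79 (-2.26 to 0.68), none of them called (adjusted p = 0.4, 0.38 and 0.6). The intervals leave room for 2-fold differences in Fcer1a, Cd9 and Clec12a. The granule and mediator list had 2 calls in 16 (12.5%, against 4.19% of all genes), Tbxas1 and Ptgs2, the inducible prostaglandin synthase. Ptgs2 was at 11.6, 13.7 and 14.6 CPM in immature and 83.0, 87.8 and 85.7 CPM in mature libraries of the IL-3 cultures. In TSLP, Ptgs2 was at 38.2, 50.8 and 64.3 CPM in immature and 39.9, 106 and 129 CPM in mature libraries (1.83 ± 0.46, adjusted p = 0.034). TSLP mature 1 lay with the TSLP immature libraries, and without it the difference was 1.51, adjusted p = 0.0027. The Ptgs2 call was lost in 8 of the 12 fits that each left out 1 library (adjusted p up to 0.074).

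The remaining lists had shares of called genes between 3.12% and 25.0%, in lists of 12 to 63 tested genes, against 4.19% of all genes. Of the azurophil granule list, 2 genes had positive calls, Hp (1.13 ± 0.28, adjusted p = 0.034) and Igsf6 (0.94 ± 0.22, adjusted p = 0.023), besides Nkg7. Progenitor genes had 4 calls, among them Gcnt2, a glycan-branching enzyme (2.56 ± 0.51, adjusted p = 0.0091), and Sox4 (-3.46 ± 0.87, adjusted p = 0.035), besides Ifitm1 and Myb. Antigen presentation had 3, Cd86, a costimulatory ligand (2.23 ± 0.43, adjusted p = 0.0075), H2-D1, an MHC class I chain (0.93 ± 0.25, adjusted p = 0.047), and Calr. Survival and death had 1 in 32 (3.12%, near the share of all genes), the death receptor Fas (3.10 ± 0.74, adjusted p = 0.026). Cytoskeleton genes had 3 in 63 (4.76%, also near it), Capg (1.26 ± 0.28, adjusted p = 0.018), Stmn1 and Scin, and ion channel and calcium genes 3 in 41 (7.32%), S100a6, Kcnj2 and the calcium pump Atp2b4 (-1.40 ± 0.38, adjusted p = 0.048). The calls of Hp, Igsf6, Sox4, H2-D1, Fas, Capg and Atp2b4 were lost in 10, 4, 9, 11, 6, 4 and 11 of the 12 fits that each left out 1 library (adjusted p up to 0.096, 0.063, 0.12, 0.11, 0.094, 0.061 and 0.15). The Sox4 difference was -2.74 without TSLP mature 1, adjusted p = 0.071.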

How the data were processed

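Bulk RNA-seq counts of sorted IL-3-elicited and TSLP-elicited BMBAs were analysed in 12 libraries, 3 per group. The study gives 3 cultures for each group. It does not state whether immature and mature cells of a cytokine came from the same cultures. Captured poly(A) RNA was amplified as whole transcriptome by PCR and sequenced on an Ion Proton. The authors trimmed reads with Cutadapt, mapped them to reference RNA of GRCm38 with Bowtie2 and deposited raw counts per gene symbol (the labels also name GRCm39 and mm10). The treatment of reads shared by similar genes, of strand and of molecular identifiers is not stated in those sources. Levels of genes with similar relatives, such as Pilrb1, Lilrb4a, Ifitm1, H2-D1 and Mcpt8, are therefore uncertain to an extent that was not measured. PCR copies may count as separate reads.

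Of the deposited table, a final row without symbol held the column total (50% of each column) and was dropped. Genes were kept by filterByExpr (minimum count 10, minimum total 15), scaled by TMM and fitted with 1 mean per group by edgeR 4.0.16 in R 4.3.3, with the quasi-likelihood F test and Benjamini-Hochberg adjustment over all 10861 genes. Values after ± are SE for log2 differences and SD for CPM. The alternatives used DESeq2 1.42.0 and limma 3.58.1. For fold bounds, 0 counts in a group were replaced by 3 (the floor, over its libraries). The script was tested on simulated data with differences set in TSLP immature cells. Of 100 genes with a 2-fold difference 7 were called, and of 100 with a 4-fold one 89 were. A list without calls can therefore hold 2-fold differences. The members and lists were chosen with earlier results of these data known. The shares of called genes in the lists, set against those of all genes, are therefore descriptions and not tests. Genes were named as the up to 4 called members with the smallest p in each list (the smallest p where none was called), the 6 with the smallest p in each direction and 3 for each group that stood apart, with a mean of at least 10 CPM, all genes called in opposite directions or with the larger called effect in TSLP, and Itga2, Fcer1a, Clec12a, Cd9, Mcpt8 and Prss34. Macrophage, T cell and NK cell genes were named as markers. Some items that this rule would name are not reported here. Promoter windows and sequences are from RefSeq (GRCm38.p6) and were matched by symbol for 8256 of the tested genes.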

Additional observations from a re-analysis of the deposited data

Results flagged for a closer look

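The maturation effect differed between the cultures by the test of the difference itself for 455 genes. Maturation went opposite ways in the cultures, with both effects called, for Clec4e (difference 1.86, up in IL-3 and down in TSLP) and F13a1 (1.28, likewise). The called effect was larger in TSLP for Pld4 (difference -2.21), Tbxas1 (-1.42), Nlrc3 (1.56) and Zranb3 (1.63), and the effect in IL-3 was not called for any of these 4 (adjusted p = 0.37, 0.25, 0.1 and 0.33). No formal outlier test was run on the groups of 3 libraries.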

How the results depend on the processing

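The number of genes with a different maturation effect was 450 with DESeq2 size factors, 424 with TMM on uncalled genes, 447 without Rn45s, 625 by the DESeq2 Wald test (852 adjusted p not given), 674 without a filter, 505 with a filter of 10 CPM in 3 libraries and 311 after thinning to the smallest library. With voom and sample weights it was 987, with 563 positive, 424 negative and 767 smaller in TSLP in the same direction, and voom called 4165 genes for maturation in TSLP and 2555 between immature cells. Negative differences numbered 365 without a filter, where more genes are tested, and 135 after thinning. The slope of TSLP on IL-3 maturation effects over all tested genes was 0.541 and 0.314 without a filter. Beside the constructions named, the cause was not tested. Wherever they were tested, all 455 genes kept the sign of their difference under these settings, the block and each left-out library. These fits reuse the libraries by which the 455 genes were chosen, so the kept signs are no independent support.

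With 1 library left out at a time there were 240 to 723 called genes, 150 to 477 positive, 89 to 246 negative and 222 to 573 smaller in TSLP in the same direction. The lowest total came without IL-3 mature 2 and the highest without TSLP mature 1. Maturation was called for 4193 to 5676 genes in IL-3 and 1774 to 3456 in TSLP, the gap for 588 to 2243 in immature and 1658 to 2968 in mature cells. The slope was 0.507 to 0.572, and an IL-3 group stood apart in 49.2% to 58.7% of called genes. The uncalled differences of Clec12a and Mcpt8 (-1.41 to 0.741 and -0.264 to 0.333 with 1 library left out) changed sign, to 0.741 and 0.333 without TSLP mature 1 and to 0.11 and 0.197 with voom. Without TSLP mature 1, calls numbered 23 in mitosis, 20 in DNA replication, 11 in JAK-STAT, 14 in chemoattractant receptor and 8 in immediate early genes. That fit called 723 of 11020 tested genes.

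Whether the replicate numbers pair the libraries is not settled, and the main fit treated the libraries as unpaired. Deviations of same-numbered libraries correlated at -0.077 to 0.388 in 18 pairs of groups, 7 of them over 0.1. With the number as replicate block 556 genes were called, 446 of them among the 455. Depth limits the low genes: 35 called genes had a group at 3 counts or fewer.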

Other observations

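The word AGATAA or TGATAA, bound by GATA factors and read on both strands, was found in the promoter window of 33 of 183 genes with a positive difference (18.0%), 21 of 190 with a negative one (11.1%) and 12.7% of tested genes. The cell cycle motif shown for Top2a and Mki67 was in 14.8% of the windows of positive and 24.7% of those of negative differences. These shares are descriptions of letters in the windows, without a test.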
